A study of Mus musculus with 12 samples.

Results

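This account concerns 39 genes that bring pyruvate, branched-chain amino acids (leucine, isoleucine and valine) and ketone bodies into the tricarboxylic acid (TCA) cycle and run the cycle itself. They were chosen by name, as the rows of the deposited gene count table whose symbol is on the list, and all 39 were found among 56748 rows. All 39 also passed the filter on low counts that left 15742 genes to test, so no member was lost. The data are RNA-seq (polyadenylated RNA) of left ventricles from 12 C57BL/6J mice, 4 per group. Every mouse was injected through the tail vein with AAV9, an adeno-associated virus that reaches the heart. The groups were Irx3 vector with myocardial infarction, control vector with myocardial infarction and control vector with sham surgery. Infarction (MI) was caused by tying the left anterior descending coronary artery, and tissue was taken 14 days after surgery. Irx3 encodes a homeobox transcription factor. Irx3 vector without infarction was not among the groups, which leaves the infarcted hearts for the comparison of vectors. The promoter of the Irx3 vector is not named in the labels.

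The heart takes most of its energy from oxidation in mitochondria. Pyruvate enters them through a carrier made of Mpc1 and Mpc2 and is turned into acetyl-CoA by the pyruvate dehydrogenase complex, while citrate synthase joins acetyl-CoA to oxaloacetate to start the TCA cycle. Branched-chain amino acids first lose their amino group to Bcat2, and the branched-chain ketoacid dehydrogenase complex then commits the ketoacids to oxidation, which ends in acetyl-CoA, acetoacetate or, through propionyl-CoA, succinyl-CoA. That complex is shut off by its kinase Bckdk and switched on by its phosphatase Ppm1k.

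Library totals ran from 13352604 to 19236721 counts with Irx3 vector and MI, from 16081360 to 18738571 with control vector and MI, and from 15966982 to 18441830 with sham surgery. Levels below are CPM, the counts of a gene scaled to a common library size, after scaling by TMM factors, which correct for differences in RNA composition between libraries. Irx3 itself had 314, 513, 285 and 462 CPM in the libraries with Irx3 vector and MI, against 30.5, 27.3, 16.8 and 17.6 CPM with control vector and MI and 25.9, 25.6, 25.9 and 20.5 CPM with sham surgery, which matched the labels. The labels name cardiomyocytes as the cell type. The 12 cardiomyocyte markers summed to 37257 to 65520 CPM with Irx3 vector and MI, 30453 to 75202 CPM with control vector and MI and 110706 to 127208 CPM with sham surgery. The 10 fibroblast markers, led by Col1a1 and Col3a1, summed to 3969 to 26016 CPM, 13911 to 39318 CPM and 818 to 1094 CPM in the same groups, so the libraries hold RNA of other cells as well. Mitochondrially encoded genes took 10.4% to 19% of counts with Irx3 vector and MI, 0.926% to 5.64% with control vector and MI and 4.50% to 8.22% with sham surgery.

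The 39 genes together took 0.926% to 1.55% of all counts with Irx3 vector and MI, 0.727% to 1.58% with control vector and MI and 2.36% to 2.57% with sham surgery. Both infarcted groups lay wholly below the sham group and overlapped each other. Within the infarcted groups the spread was wide. The mean log2 CPM of the 39 genes was 6.75, 7.33, 6.99 and 7.78 in the 4 libraries with Irx3 vector and MI, 7.06, 7.49, 7.16 and 6.21 in the 4 with control vector and MI, and 8.27 to 8.38 in the sham group. Replicate 4 of control vector with MI was the lowest of all 12 libraries, and replicate 4 of Irx3 vector with MI was the highest of the infarcted ones. The same libraries were the extremes for fibroblast markers in the other direction, with 39318 CPM in replicate 4 of control vector with MI and 3969 CPM in replicate 4 of Irx3 vector with MI.

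**Figure D1:**
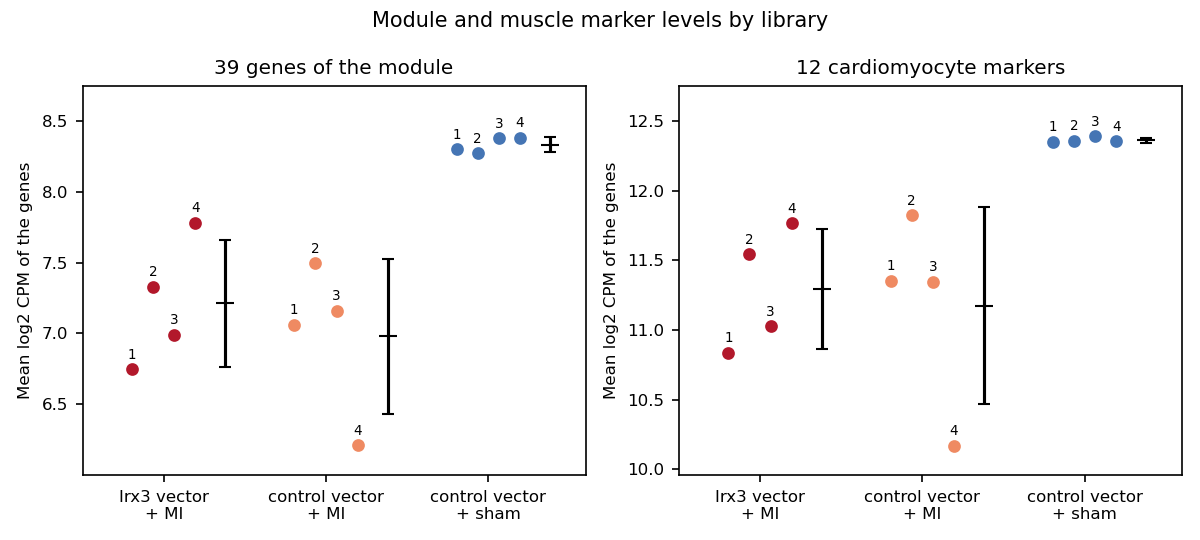
Mean log2 CPM of the 39 genes (left) and of 12 cardiomyocyte markers (right) in each library, with replicate numbers above the points and the group mean ± SD (n = 4) in black. Sham libraries sit at 8.27 to 8.38 for the 39 genes, above all infarcted libraries, and the order of the infarcted libraries is similar in both panels.

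Infarction under control vector was compared with sham surgery to ask how the genes stood 14 days after the injury. All 39 genes were lower after infarction and none was higher, by edgeR's quasi-likelihood test, although 13 of them lay above 0 when libraries were scaled to cardiomyocyte markers. A gene was called where its p, adjusted by Benjamini-Hochberg across the tested genes, was under 0.05. Of all 15742 genes, 22.4% were called lower and 26.3% higher. The median log2 fold change of the 39 was -1.19, with a range from -2.05 to -0.80, while the median of all genes was 0.01. In each of the 39 genes the 4 infarcted libraries lay below the 4 sham libraries, as they did in 22.8% of all genes, with 24.5% apart the other way. After correction for GC content, described below, 39 members were lower and none higher, with 23.1% of all genes lower and 30.1% higher. In whole tissue, fewer cells of a type and less RNA of these genes per cell cannot be told apart. The cardiomyocyte markers moved with the genes: 10 of the 12 were called lower, with a median log2 fold change of -1.10. The mean log2 CPM of the 39 genes minus that of the markers was -4.29, -4.33, -4.19 and -3.96 with control vector and MI. With sham surgery it was -4.09 to -3.97, so the groups overlapped, but only through replicate 4 of control vector with MI. Of the roles, only ketone body use was fully apart on this measure, at -3.16 to -2.94 against -2.83 to -2.63 with sham surgery. When libraries were scaled to the 12 markers, an alternative chosen after seeing the data, 5 of the 39 genes were called lower, none higher, and the median was -0.07. That scaling moved the median of all genes to 1.31, with 1.92% of all genes lower and 73.7% higher.

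**Figure D2:**
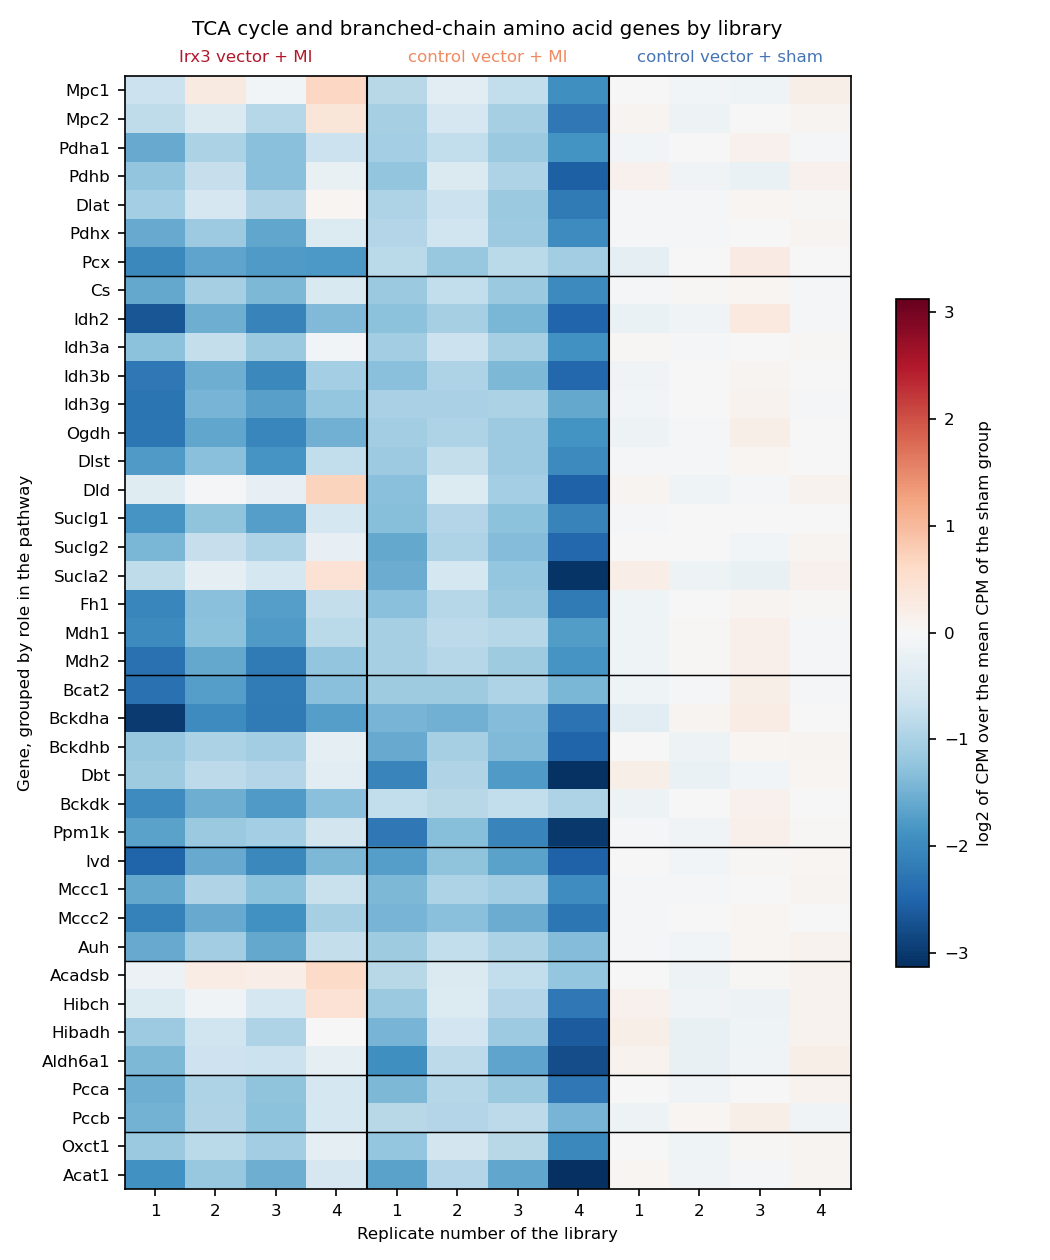
Log2 of the CPM of each of the 39 genes in each library over the mean CPM of the sham group, with genes in rows grouped by role and libraries in columns by group. Sham columns are near 0, control vector with MI is below 0 in all 39 genes and in most of them deepest in replicate 4, and Irx3 vector with MI is mixed, with Dld, Acadsb and Mpc1 near or above 0.

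The 7 genes of pyruvate entry were all lower after infarction, with a median log2 fold change of -1.09. The largest fall was in Pdha1, the catalytic alpha subunit of pyruvate dehydrogenase, with a log2 fold change of -1.16 ± 0.24 (SE; adjusted p = 0.00155). Pdha1 averaged 530 ± 152 CPM with control vector and MI and 1188 ± 81.4 CPM with sham surgery (SD, n = 4 each). The smallest was in Mpc1, a subunit of the mitochondrial pyruvate carrier, which had 20.7, 29.9, 22.3 and 10 CPM with control vector and MI against 37.9, 36.1, 34.6 and 43.4 CPM with sham surgery. Its log2 fold change was -0.88 ± 0.30 (adjusted p = 0.026), and without sham replicate 4 the adjusted p was 0.0653. Pcx, the pyruvate carboxylase that refills the cycle with oxaloacetate, fell with the least scatter of the 7, by 0.98 ± 0.13 on the log2 scale (adjusted p = 0.000117).

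All 14 TCA cycle genes were lower after infarction, with a median of -1.21 and a narrow range from -1.50 to -1.08. Suclg2, the subunit of the GTP-forming succinyl-CoA ligase, had the largest log2 fold change, -1.50 ± 0.28 (adjusted p = 0.000806), and Mdh1, the cytosolic malate dehydrogenase, the smallest, -1.08 ± 0.27 (adjusted p = 0.00497). Cs, the citrate synthase at the start of the cycle, averaged 746 ± 239 CPM with control vector and MI and 1718 ± 63.0 CPM with sham surgery. Ogdh is the oxoglutarate dehydrogenase subunit of the complex that makes succinyl-CoA. It had 2876, 3148, 2784 and 1684 CPM with control vector and MI against 5496, 5966, 6963 and 6071 CPM with sham surgery. The infarcted libraries were all below the lowest sham library, and the log2 fold change was -1.22 ± 0.25 (adjusted p = 0.00154). Dld, the dihydrolipoamide dehydrogenase shared by the pyruvate, oxoglutarate and branched-chain ketoacid complexes, had 193, 243, 209 and 405 CPM with Irx3 vector and MI, 102, 186, 120 and 43.6 CPM with control vector and MI, and 266, 229, 240 and 271 CPM with sham surgery. Sucla2, the subunit of the ATP-forming succinyl-CoA ligase, had 174, 249, 204 and 413 CPM with Irx3 vector and MI, 103, 208, 130 and 35.9 CPM with control vector and MI, and 348, 270, 256 and 333 CPM with sham surgery. In both genes control vector with MI lay below the sham group, and Irx3 vector with MI overlapped it.

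Dld and Sucla2 were among the genes higher with Irx3 vector as counted, but neither was called after the GC correction, both described below. The promoters of Ogdh, Dld and Sucla2, all cycle genes, are shown because they hold a motif match. Each runs from 250 bases before to 50 bases after the annotated start in RefSeq (GRCm38.p6), 5′ to 3′ on the strand of the gene, with a motif match in capitals. Ogdh is at chr11:6291920-6292219 on the plus strand, Dld at chr12:31351422-31351721 on the minus strand and Sucla2 at chr14:73552536-73552835 on the plus strand.
Ogdh: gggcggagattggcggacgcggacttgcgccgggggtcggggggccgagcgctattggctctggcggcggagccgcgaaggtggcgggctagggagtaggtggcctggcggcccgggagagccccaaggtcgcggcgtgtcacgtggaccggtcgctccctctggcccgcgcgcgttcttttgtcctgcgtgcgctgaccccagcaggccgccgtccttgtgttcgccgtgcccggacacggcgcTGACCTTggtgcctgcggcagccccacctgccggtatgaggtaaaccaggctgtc
Dld: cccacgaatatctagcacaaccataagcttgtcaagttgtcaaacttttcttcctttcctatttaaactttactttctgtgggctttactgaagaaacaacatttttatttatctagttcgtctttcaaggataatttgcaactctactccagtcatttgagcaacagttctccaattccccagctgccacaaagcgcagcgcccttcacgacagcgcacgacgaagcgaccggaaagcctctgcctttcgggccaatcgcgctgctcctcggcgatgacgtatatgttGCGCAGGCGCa
Sucla2: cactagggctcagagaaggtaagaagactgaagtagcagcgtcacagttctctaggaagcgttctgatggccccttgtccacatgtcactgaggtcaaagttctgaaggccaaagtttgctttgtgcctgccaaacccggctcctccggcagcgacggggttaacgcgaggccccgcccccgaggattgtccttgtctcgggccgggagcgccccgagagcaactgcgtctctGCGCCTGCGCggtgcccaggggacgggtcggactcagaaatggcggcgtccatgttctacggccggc
The capitals in Ogdh mark AAGGTCA on the opposite strand, the sequence bound by oestrogen-related receptors. Those in Dld mark the NRF1 motif (GCGCA, any base, then GCGC), bound by the factor NRF1, on the strand shown, and those in Sucla2 mark it on the opposite strand. A promoter was on file for 36 of the 39 genes. On either strand, AAGGTCA was in 1 of the 36 (2.78%) and in 5.38% of all 27025 promoters, and the NRF1 motif was in 4 of the 36 (11.1%: Dld, Sucla2, Hibadh and Pccb) and in 5.19% of all. CCGGAAG, bound by ETS factors such as GABPA, was in 5 of the 36 (13.9%: Mpc1, Idh3b, Idh3g, Dlst and Auh) and in 9.93% of all. A match describes the letters of this window and is not a binding site, and its part in any fold change was not tested.

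The 6 genes of the first branched-chain steps had the largest median fall of the roles, -1.57 on the log2 scale, and ranged from -2.05 to -0.84. Ppm1k, the phosphatase that activates the branched-chain ketoacid dehydrogenase, had 24.9, 35.8, 37.9 and 53.9 CPM with Irx3 vector and MI, 16.8, 31.7, 19 and 9.82 CPM with control vector and MI, and 75.8, 73.2, 88.2 and 80.9 CPM with sham surgery. Bckdk, the kinase that inactivates it, had 51.3, 70.1, 58.9 and 80.7 CPM with Irx3 vector and MI, 118, 109, 117 and 103 CPM with control vector and MI, and 178, 202, 220 and 201 CPM with sham surgery. After infarction under control vector the log2 fold change was -2.05 ± 0.30 for Ppm1k (adjusted p = 0.000174) and -0.84 ± 0.14 for Bckdk (adjusted p = 0.000374). Neither gene's infarcted libraries overlapped the sham group. The subunits of the complex fell by amounts between these, with log2 fold changes of -1.77 ± 0.33 for Dbt (adjusted p = 0.00081), -1.61 ± 0.26 for Bckdha (adjusted p = 0.000309) and -1.54 ± 0.26 for Bckdhb (adjusted p = 0.000482). Bcat2, the mitochondrial aminotransferase, had a log2 fold change of -1.14 ± 0.20 (adjusted p = 0.000503).

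The 10 genes further down the branched-chain and propionyl-CoA routes were all lower after infarction. In the leucine branch, Ivd, the isovaleryl-CoA dehydrogenase, averaged 223 ± 74.4 CPM with control vector and MI and 737 ± 29.9 CPM with sham surgery, a log2 fold change of -1.72 ± 0.27 (adjusted p = 0.000252). Auh, the methylglutaconyl-CoA hydratase of the same branch, fell least there, with -1.04 ± 0.18 (adjusted p = 0.000595). In the valine and isoleucine branch, Aldh6a1, the methylmalonate semialdehyde dehydrogenase, had -1.62 ± 0.33 (adjusted p = 0.00147). Acadsb, the dehydrogenase of short branched acyl-CoA, had -0.80 ± 0.18 (adjusted p = 0.00235), the smallest change of the 39. Pcca and Pccb, the subunits of propionyl-CoA carboxylase, had -1.34 ± 0.25 (adjusted p = 0.000839) and -0.99 ± 0.20 (adjusted p = 0.00116). Of the enzymes of ketone body use, Acat1, the acetoacetyl-CoA thiolase, averaged 184 ± 96.8 CPM with control vector and MI and 574 ± 36.6 CPM with sham surgery (log2 fold change -1.64 ± 0.38, adjusted p = 0.00304). Oxct1, which transfers CoA to acetoacetate, had -1.07 ± 0.28 (adjusted p = 0.00625).

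Irx3 vector was then compared with control vector in infarcted hearts. As counted, 10 of the 39 genes were higher with Irx3 vector and 3 were lower, while 26 were not called, and the median log2 fold change was 0.14. Of all genes 25.2% were higher and 24.1% lower, so the share of higher members was close to that background and the share of lower members was below it. The 10 higher genes were Mpc1, Dld, Suclg2, Sucla2, Bckdhb, Dbt, Ppm1k, Acadsb, Hibch and Aldh6a1, and the 3 lower genes were Pcx, Bcat2 and Bckdk. The groups did not overlap in 2 genes higher with Irx3 vector, Dld and Acadsb (22.1% of all genes), and in 2 lower, Pcx and Bckdk (18.9% of all genes). The mitochondrially encoded share of counts, given above, did not overlap between these groups either. Of the 12 cardiomyocyte markers 1 was higher and 3 were lower with Irx3 vector, with a median of -0.25, and of the 10 fibroblast markers none was higher and 3 were lower, with a median of -0.84. After the GC correction, described below, 1 cardiomyocyte marker was higher and none was lower, with a median of 0.22. Of the fibroblast markers none was then higher and 3 were lower, with a median of -1.05. Of all genes 13.2% were then higher and 12.3% lower. The part of these markers and of the mitochondrially encoded share in the result was not tested. With the mitochondrially encoded genes removed the counts of members were again 10 and 3, against 24.8% of all genes higher and 24.1% lower. Single libraries moved the counts. The number higher was 4 without replicate 4 of Irx3 vector with MI (23.1% of all genes) and 6 without its replicate 2 (23.2%). It was 5, 13 and 6 without replicates 1, 2 and 3 of control vector with MI (21.9%, 26.8% and 23.2% of all genes). The number lower was 7 without replicate 4 of either infarcted group, against 20.9% (control vector) and 22.5% (Irx3 vector) of all genes. Without both of these replicates 4, 4 members were higher, 15 were lower and the median was -0.29, where 23.3% of all genes were higher and 22.4% lower. These replicates held the lowest and the highest level of the 39 genes among infarcted libraries, so leaving them out lowers the difference by construction.

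By role, the largest change in pyruvate entry was in Mpc1, which had 24, 46.5, 36.1 and 59.1 CPM with Irx3 vector and MI, and the smallest in Pdhx, which holds the dihydrolipoamide dehydrogenase in the pyruvate complex. Replicates 2, 3 and 4 of Irx3 vector with MI were above every library of control vector with MI, given above, and replicate 1 was below its replicate 2. The log2 fold change was 1.00 ± 0.30 for Mpc1 (adjusted p = 0.0135) and -0.03 ± 0.28 for Pdhx (adjusted p = 0.948). The counts of Mpc1 are uncertain, since Mpc1-ps, a near copy, averaged 87.2 ± 35 CPM with Irx3 vector and MI and 74.3 ± 32.6 CPM with control vector and MI, more than Mpc1 itself. With the counts of both added, the log2 fold change was 0.44 (adjusted p = 0.265). Pcx had 29.9, 38.3, 35.3 and 34.8 CPM with Irx3 vector and MI against 66.4, 52.8, 67.1 and 56.7 CPM with control vector and MI. Every Irx3 library lay below every control library, and the log2 fold change was -0.81 ± 0.13 (adjusted p = 0.000371).

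In the TCA cycle 3 of 14 genes were higher and none was lower. Dld had the largest change, with a log2 fold change of 1.22 ± 0.34 (adjusted p = 0.0102), followed by Sucla2 with 1.13 ± 0.40 (adjusted p = 0.0333) and Suclg2 with 0.72 ± 0.28 (adjusted p = 0.045). The smallest was in Fh1, the fumarase, with -0.05 ± 0.28 (adjusted p = 0.894). Ogdh had 1274, 1993, 1492 and 2176 CPM with Irx3 vector and MI, and control vector with MI overlapped it only through its replicate 4. Its log2 fold change of -0.60 ± 0.25 was not called (adjusted p = 0.0613). Ogdh was called lower without replicate 4 of control vector with MI (-0.75, adjusted p = 0.00922) or of Irx3 vector with MI (-0.73, adjusted p = 0.0384). In the same 2 fits Mdh2 (-0.76 and -0.83) and Idh3g (-0.61 and -0.64) were called lower as well. As said above, leaving out these extreme replicates lowers the difference by construction. With all libraries and the GC correction, Ogdh was -0.34 (adjusted p = 0.312), Mdh2 -0.16 (adjusted p = 0.686) and Idh3g -0.33 (adjusted p = 0.238).

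Among the first branched-chain steps, 3 genes were higher, 2 lower and 1 was not called. The log2 fold change was 1.00 ± 0.33 for Dbt (adjusted p = 0.0208), 0.98 ± 0.29 for Ppm1k (adjusted p = 0.0134) and 0.69 ± 0.26 for Bckdhb (adjusted p = 0.0417). It was -0.78 ± 0.14 for Bckdk (adjusted p = 0.000651), -0.68 ± 0.20 for Bcat2 (adjusted p = 0.0113) and -0.54 ± 0.25 for Bckdha (adjusted p = 0.0946). Of these, only the Bckdk libraries of the groups were fully apart. In the valine and isoleucine branch, Acadsb had 91.9, 122, 121 and 157 CPM with Irx3 vector and MI against 56.9, 76.8, 61.1 and 45.2 CPM with control vector and MI. The groups were apart, and the log2 fold change was 1.04 ± 0.18 (adjusted p = 0.000457). Hibch, the hydroxyisobutyryl-CoA hydrolase of valine breakdown, had 0.95 ± 0.30 (adjusted p = 0.0185) and Aldh6a1 had 0.91 ± 0.33 (adjusted p = 0.0327), while Hibadh, the dehydrogenase between them in the pathway, was not called at 0.66 ± 0.34 (adjusted p = 0.116). No gene of the leucine branch, propionyl-CoA carboxylase or ketone body use was called, and their log2 fold changes ran from -0.17 in Auh to 0.45 in Acat1. Of the 13 calls, those of Suclg2, Sucla2, Bckdhb, Dbt, Hibch and Aldh6a1 were lost without replicate 4 of Irx3 vector with MI, where their log2 fold changes were 0.49, 0.81, 0.45, 0.83, 0.71 and 0.75. Without replicate 1 of control vector with MI, the calls of Suclg2, Sucla2, Bckdhb, Dbt and Aldh6a1 were lost, at 0.68, 1.06, 0.68, 0.92 and 0.83. Without its replicate 3 those of Suclg2, Sucla2, Bckdhb and Aldh6a1 were lost, at 0.77, 1.18, 0.75 and 0.91, and without its replicate 4 those of Suclg2, Bckdhb and Aldh6a1, at 0.50, 0.48 and 0.68. Without replicate 2 of Irx3 vector with MI, Suclg2, Sucla2, Bckdhb and Aldh6a1 were not called, at 0.71, 1.16, 0.75 and 0.90, and without its replicate 3 Suclg2 and Aldh6a1 were not, at 0.78 and 0.91. Suclg2 and Bckdhb also missed the threshold without any 1 of the sham libraries, at 0.71 and 0.69. Other calls were gained. Bckdha was lower without replicate 4 of control vector with MI (-0.71) or of Irx3 vector with MI (-0.72). With all libraries and the GC correction it was 0.08 (adjusted p = 0.864). Without replicate 2 of control vector with MI, Mpc2, Dlat and Hibadh were higher, at 1.00, 0.82 and 0.99. Mpc2 was also higher without replicate 1 or 3 of Irx3 vector with MI, at 0.87 and 0.90.

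**Figure D3:**
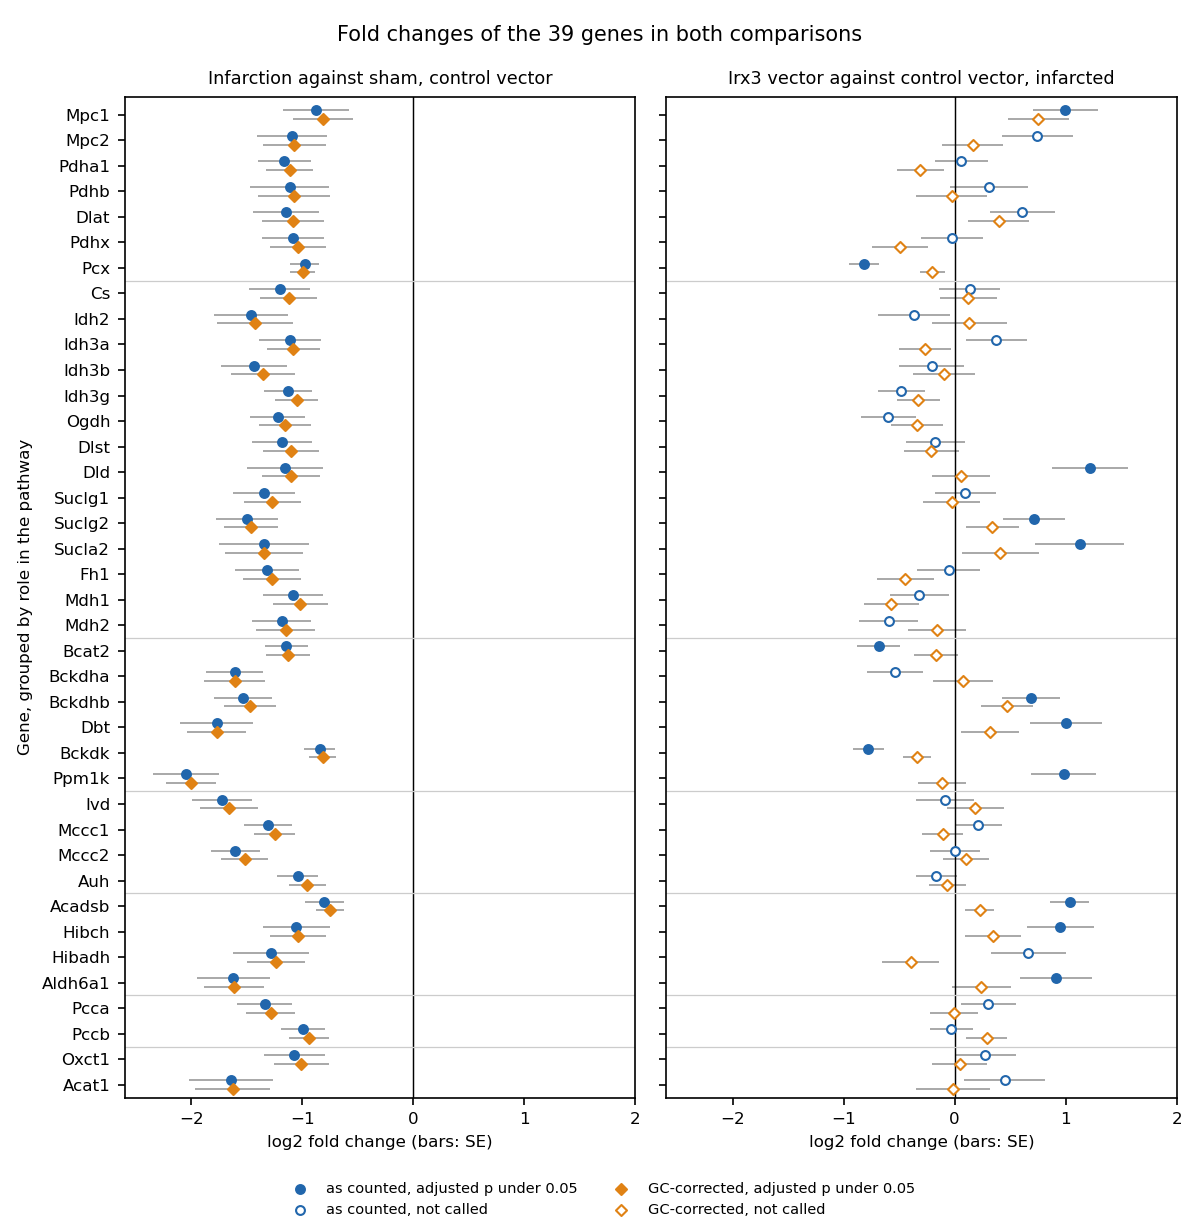
Log2 fold changes with SE of the 39 genes for infarction against sham under control vector (left) and Irx3 vector against control vector after infarction (right), as counted (circles) and after correction for GC content (diamonds), filled where the adjusted p is under 0.05. On the left all 39 genes are below 0 with and without the correction, and on the right the filled circles, 10 above 0 and 3 below, have open diamonds beside them.

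These differences followed the GC content of the transcripts, the share of G and C bases. Across the 39 genes the Spearman correlation of the log2 fold change with GC content was -0.86, and across all 15183 tested genes with a known GC content it was -0.67, both as a description of the same 8 libraries. The 13 members of lowest GC content (40% to 46%) had a median of 0.91, with 7 higher and none lower. The middle 13 (46.1% to 49.3%) had a median of 0.28, with 3 higher. The highest 13 (50.4% to 58.2%) had a median of -0.48, with 3 lower. All genes in the same ranges had medians of 0.73, 0.21 and -0.39, with 61.1% higher in the lowest, 27.9% higher in the middle and 40.3% lower in the highest range. After a correction of each library for GC content, none of the 39 genes was called in either direction, the median was -0.01, and 13.2% of all genes were higher and 12.3% lower. The corrected log2 fold change was 0.06 ± 0.26 for Dld (adjusted p = 0.893), 0.23 for Acadsb (adjusted p = 0.214), -0.20 for Pcx (adjusted p = 0.216) and -0.12 ± 0.22 for Ppm1k (adjusted p = 0.733). Mpc1 and Bckdk were nearest to the threshold, with 0.76 ± 0.27 (adjusted p = 0.0578) and -0.34 ± 0.12 (adjusted p = 0.0588). Without both replicates 4 of the infarcted groups, the corrected values gave 16 members lower and none higher, with a median of -0.37, where 11.6% of all genes were lower and 12% higher. As said above, these replicates were the extremes of the 39 genes as counted, so no conclusion is drawn from this shift.

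**Figure D4:**
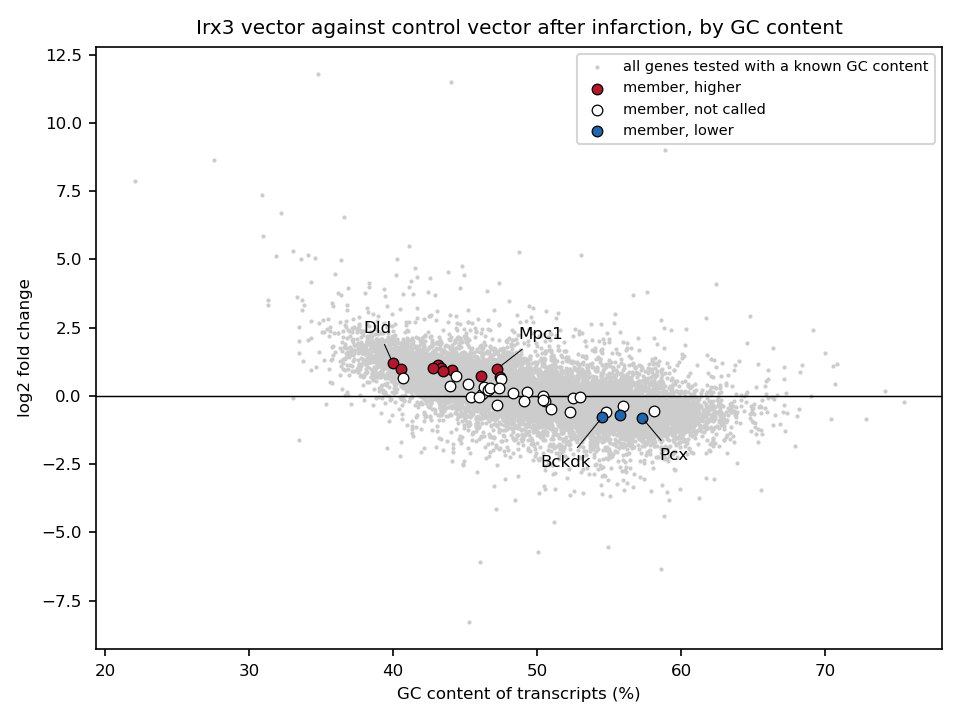
Log2 fold change of Irx3 vector against control vector after infarction against the GC content of transcripts in percent, for all tested genes (grey) and the 39 members (red higher, blue lower, white not called). Members of low GC content such as Dld lie above 0 and those of high GC content such as Pcx and Bckdk below it, along the grey cloud.

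Irx3 vector with MI was also set against sham surgery, which changes vector and surgery together. Of the 39 genes 28 were lower, none was higher and 11 were not called, with a median log2 fold change of -1.09. Of all genes 27.7% were lower and 35.2% higher, and their median was 0.12. The groups did not overlap in 31 genes, all lower with Irx3 vector and MI (27.6% of all genes, with 33.2% apart and higher). This comparison shares its sham libraries with the first and its Irx3 libraries with the second. After the GC correction 37 of the 39 were lower, with a median of -1.30, against 22% of all genes lower and 32.1% higher.

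The falls ran deepest in Bckdha, the alpha subunit of the branched-chain ketoacid dehydrogenase, which had 23.3, 47.6, 39.7 and 56.3 CPM with Irx3 vector and MI, 67.5, 65.1, 71.9 and 37.3 CPM with control vector and MI, and 144, 194, 217 and 182 CPM with sham surgery. The infarcted groups overlapped each other and both lay below the sham group, and against sham the log2 fold change with Irx3 vector was -2.15 ± 0.26 (adjusted p = 2.12e-05). Idh2, the mitochondrial NADP-dependent isocitrate dehydrogenase, had -1.83 ± 0.34 (adjusted p = 0.000411), Ogdh had -1.82 ± 0.26 (adjusted p = 5.7e-05) and Ivd had -1.81 ± 0.27 (adjusted p = 8.49e-05). Pcx had -1.79 ± 0.14 (adjusted p = 1.2e-06) and Bckdk had -1.62 ± 0.14 (adjusted p = 2.34e-06). Idh3a, a subunit of the NAD-dependent isocitrate dehydrogenase, was nearest to the threshold among those lower, with -0.73 ± 0.27 (adjusted p = 0.032). It missed the threshold without replicate 1 or 3 of Irx3 vector with MI, at -0.65 and -0.67, and without any 1 sham library, at -0.76 to -0.73.

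The 11 genes not called were Mpc1, Mpc2, Pdhb, Dlat, Dld, Sucla2, Dbt, Acadsb, Hibch, Hibadh and Aldh6a1. All 4 genes of the valine and isoleucine branch were among them, with a median log2 fold change of -0.36. Acadsb was 0.23 ± 0.17 (adjusted p = 0.256) and Dld was 0.06 (adjusted p = 0.882), values that miss the threshold and do not show equal levels. Mpc1 was 0.12 ± 0.29 (adjusted p = 0.731), but its counts are uncertain, as said above. With the counts of its near copy Mpc1-ps added, the log2 fold change was -0.53 (adjusted p = 0.155). After the GC correction the 4 genes of this branch were all lower, Dld was at -1.05 and Acadsb at -0.52, and only Mpc1 (-0.06, adjusted p = 0.868) and Dlat (-0.68, adjusted p = 0.0505) were not called. Without replicate 4 of Irx3 vector with MI, 34 genes were lower as counted, against 27.6% of all genes. Among them were Mpc2 at -0.70, Pdhb at -1.07, Dlat at -0.82, Dbt at -0.95, Hibadh at -0.90 and Aldh6a1 at -0.88.

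The kinase and the phosphatase of the branched-chain ketoacid dehydrogenase did not keep 1 ratio across the groups. The CPM of Bckdk over that of Ppm1k was 2.06, 1.96, 1.55 and 1.5 with Irx3 vector and MI, 7.02, 3.45, 6.19 and 10.5 with control vector and MI, and 2.35, 2.75, 2.5 and 2.49 with sham surgery. None of the groups overlapped. On the log2 scale the ratio was 1.32 higher in control vector with MI than in sham, 1.85 lower in Irx3 vector with MI than in control vector with MI (a difference of -1.85) and 0.52 lower in Irx3 vector with MI than in sham (a difference of -0.52). The pair was chosen after its fold changes were seen, so these values are a description and no test is given. With GC-corrected values the differences were 1.18, -0.22 and 0.96, so the ratio of Irx3 vector with MI was above sham rather than below it. GC content is 54.5% for Bckdk and 40.5% for Ppm1k.

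**Figure D5:**
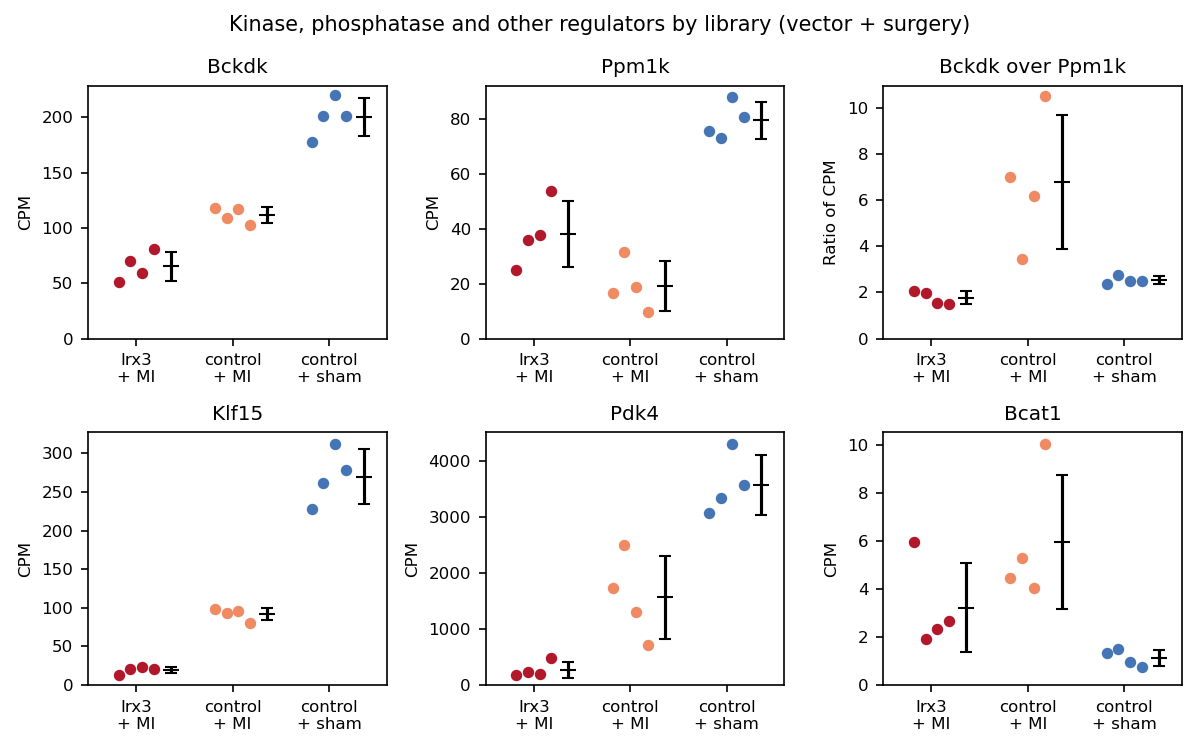
CPM of Bckdk and Ppm1k, their ratio, and CPM of Klf15, Pdk4 and Bcat1 in each library, with the group mean and SD (n = 4). The ratio peaks in control vector with MI at 3.45 to 10.5, Klf15 and Pdk4 are lowest with Irx3 vector and MI, and Bcat1 is at 0.765 to 1.51 CPM with sham surgery.

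Genes that act beside the 39 were counted in 4 further lists, to be read against the shares over all genes given above: 26.3% higher and 22.4% lower after infarction, and 25.2% higher and 24.1% lower with Irx3 vector against control vector. Counts after the GC correction are to be read against 13.2% higher and 12.3% lower in the comparison of vectors. Of 23 other TCA cycle and shuttle genes, 4 were higher and 17 lower after infarction under control vector, and 3 were higher and 4 lower with Irx3 vector against control vector after infarction. After infarction Slc25a1, the mitochondrial citrate carrier, had a log2 fold change of 1.57 ± 0.22 (adjusted p = 0.000139), Pck2, the mitochondrial phosphoenolpyruvate carboxykinase, 1.10 ± 0.20 (adjusted p = 0.000761), and Ogdhl, a relative of Ogdh, -2.08 ± 0.37 (adjusted p = 0.000609). With Irx3 vector against control vector Pck2 had -1.49 ± 0.21 (adjusted p = 0.00012) and -1.03 after the GC correction, which left 1 gene higher and 1 lower.

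Of 11 pyruvate dehydrogenase regulators and lipoylation genes, 1 was higher and 9 lower after infarction, and 2 were higher and 1 lower with Irx3 vector against control vector, or none and 1 after the GC correction. Pdk4, a kinase that shuts off pyruvate dehydrogenase, had 173, 237, 202 and 475 CPM with Irx3 vector and MI, 1724, 2500, 1309 and 717 CPM with control vector and MI, and 3065, 3341, 4299 and 3577 CPM with sham surgery. The 3 groups did not overlap. Its log2 fold change was -2.53 ± 0.39 with Irx3 vector against control vector (adjusted p = 0.000258), and -2.77 after the GC correction. After infarction under control vector it was -1.19 ± 0.38 (adjusted p = 0.0184), while Pdk3, another kinase of the complex, had 1.96 ± 0.35 (adjusted p = 0.000569) and Pdp2, a phosphatase of it, -1.98 ± 0.31 (adjusted p = 0.000282).

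Of 18 other branched-chain and ketone genes, 5 were higher and 8 lower after infarction, and 2 were higher and 8 lower with Irx3 vector against control vector, or none and 6 after the GC correction. Bcat1, the cytosolic aminotransferase, had 5.97, 1.92, 2.34 and 2.66 CPM with Irx3 vector and MI, 4.48, 5.31, 4.04 and 10.1 CPM with control vector and MI, and 1.33, 1.51, 0.956 and 0.765 CPM with sham surgery. Both infarcted groups lay above the sham group and overlapped each other. The log2 fold change was 2.38 ± 0.42 after infarction under control vector (adjusted p = 0.000594) and -0.89 ± 0.39 with Irx3 vector against control vector (adjusted p = 0.0718). The value was -1.38 without replicate 1 of Irx3 vector with MI, where it was called (adjusted p = 0.0069). DESeq2 called it as well, at -0.93 (adjusted p = 0.0463). With Irx3 vector against control vector, Bdh1, the hydroxybutyrate dehydrogenase, had -1.54 ± 0.34 (adjusted p = 0.00232). Slc43a1 and Slc7a5, carriers of branched-chain amino acids across the cell membrane, had -2.03 ± 0.38 (adjusted p = 0.000878) and -1.26 ± 0.24 (adjusted p = 0.000962).

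Of 14 transcriptional regulators of oxidative metabolism, none was higher and 10 were lower after infarction, and 5 were higher and 5 lower with Irx3 vector against control vector, or 4 and 3 after the GC correction. Klf15, a factor known to drive branched-chain amino acid breakdown genes in heart, had 13.5, 20.9, 23.2 and 20.7 CPM with Irx3 vector and MI, 97.8, 93.4, 95.5 and 80.1 CPM with control vector and MI, and 228, 261, 312 and 279 CPM with sham surgery. The 3 groups were fully apart. Its log2 fold change was -2.23 ± 0.17 with Irx3 vector against control vector (adjusted p = 5.76e-06) and -1.76 after the GC correction. Ppargc1a, a coactivator of mitochondrial genes, had 47.5, 77.7, 66.8 and 84.4 CPM with Irx3 vector and MI against 167, 443, 206 and 42 CPM with control vector and MI. Replicate 4 of control vector with MI was below all of the Irx3 libraries, and the log2 fold change was -1.63 ± 0.48 (adjusted p = 0.0127). The call was lost without replicate 2 of control vector with MI (-1.0, adjusted p = 0.0545). Esrra, an oestrogen-related receptor, had -0.82 ± 0.20 (adjusted p = 0.00453) as counted and -0.18 after the GC correction. Gabpa, Mef2a and Tfam had 1.28 ± 0.15 (adjusted p = 5.17e-05), 1.24 ± 0.13 (adjusted p = 2.95e-05) and 1.13 ± 0.21 (adjusted p = 0.000729), and 0.35, 0.40 and 0.54 after the correction.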

How the data were processed

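RNA-seq of 12 left ventricles was used as the gene count table that the authors deposited, with whole-number counts per gene and 1 column per library. Per the submitters' processing notes, fastp was used and the build was GRCm39 (mm39). Which aligner, counter, annotation release, versions and strand setting served is not given in the sources used here, so antisense or near-identical genes cannot be separated. No column belonged to other samples (0). All 56748 rows named a gene.

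The 39 members and all lists were chosen with earlier results of these data known. Each role's members of largest and smallest change were named, with the calls against the majority, up to 3 rises and 3 falls per pathway list and the regulators fixed by name. A gene that this rule names is not reported here. The Bckdk to Ppm1k ratio was chosen after its values were seen.

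Genes were filtered with filterByExpr, scaled by TMM and fitted with edgeR 4.0.16 (quasi-likelihood, robust, R 4.3.3) to the 3 groups of 12 libraries, which left 9 residual degrees of freedom. P-values were adjusted by Benjamini-Hochberg over 15742 genes, with a threshold of 0.05. SE is the log2 fold change over the root of F. Mean log2 CPM used a prior count of 1. The GC correction fitted each library against GC content by natural splines (6 degrees of freedom, 3 rounds), using genes whose mean log2 CPM reached 2. GC content came from GENCODE M21 (GRCm38) by symbol, for 15183 tested genes (96.4%) and 39 members. Its coordinates were not used. Promoters are from RefSeq GRCm38.p6. Alternatives were other scaling factors, DESeq2 1.42.0, other filters, only the groups compared, a replicate block, removal of mitochondrially encoded genes, and leaving out libraries. No 2 libraries were copies: over 66 pairs the lowest chi-square per degree of freedom was 7.87. The labels put the 12 libraries in 1 batch.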

Additional observations from a re-analysis of the deposited data

Results flagged for a closer look

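Idh3g, a subunit of the NAD-dependent isocitrate dehydrogenase, had 216.677 CPM in replicate 4 of control vector with MI, while the other 3 libraries of that group had 327 to 334 CPM. The gap to the nearest library was 0.941 of the range of the group. It was the 1 value set apart among 117 groups of 4 libraries checked, where chance sets apart about 1 in 20.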

How the results depend on the processing

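The call of all 39 genes lower after infarction under control vector lost its direction in 13 genes when libraries were scaled to cardiomyocyte markers, an alternative chosen after seeing the data, and in none under the other alternatives run. The count was 34 without a filter, where 9.86% of all genes were lower. It was 38 to 39 with 1 library left out (median -1.45 to -1.08), where 18.4% to 27.3% of all genes were lower. With that scaling it was 5, where the median was -0.07 and 1.92% of all genes were lower. For Irx3 vector against control vector after infarction, 3 genes were lower and 10 higher. DESeq2 gave 6 lower (26.9% of all genes). There were 2 higher without a filter (11.7% of all genes) and 4 higher with only the 2 groups compared (22.3%). The GC correction gave 0 and 0, against 12.3% of all genes lower and 13.2% higher. With 1 library left out, 3 to 7 were lower (20.1% to 24.8% of all genes) and 4 to 13 higher (21.9% to 26.8%). The medians of the members ran from -0.11 to 0.32. Without both replicates 4 of the infarcted groups, 15 were lower and 4 higher (median -0.29), where 22.4% and 23.3% of all genes were. With the GC correction as well, 16 were lower and 0 higher (median -0.37), where 11.6% and 12% of all genes were. These replicates were the extremes of the 39 genes among infarcted libraries as counted, so leaving them out lowers the difference as counted by construction. For Irx3 vector with infarction against sham, 27 to 34 were lower with 1 library left out (median -1.28 to -1.01), against 24.2% to 30.7% of all genes. Scaled to the markers, 9 were lower and 6 higher (median -0.06), where 2.56% of all genes were lower and 60% higher (median 1.24), and without both replicates 4 and with the GC correction the median was -1.50. The cause was not tested.

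Replicate numbers did not pair the samples: correlations of same-numbered deviations ran from -0.26 to -0.07, -0.42 to 0.10 and -0.09 to 0.08 in the 3 comparisons. With a replicate block, 6 genes were higher with Irx3 vector against control vector (22.3% of all genes). With the block and the GC correction 0 were higher and 0 lower, against 9.41% and 8.57% of all genes.

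Counting genes that no fit called, 13 members changed sign with the GC correction for Irx3 vector against control vector, and 3 for Irx3 vector with infarction against sham (Mpc1, Dld and Acadsb). The log2 fold changes that follow changed sign and were called in at least 1 of the fits compared. For Irx3 vector against control vector, Ppm1k was -0.12 with the GC correction and -0.12 with the block too. Without both replicates 4, Mccc2 was -0.40, and with the GC correction as well Pdha1 was -0.61, Idh3a -0.69, Dld -0.40, Suclg1 -0.51, Suclg2 -0.059, Sucla2 -0.14, Dbt -0.051, Ppm1k -0.44, Hibch -0.076, Hibadh -0.84, Aldh6a1 -0.10, Acat1 -0.56, Slc25a1 0.076, Mmut -0.10 and Slc16a1 -0.30. For Irx3 vector with infarction against sham, the GC correction gave Dld -1.05, Acadsb -0.52, Pdp1 -0.11 and Gabpa -0.24, and with the block -1.06, -0.53, -0.12 and -0.24. Without both replicates 4 as well as with the correction, Dld was -1.28, Acadsb -0.63, Acly 0.29, Me1 -0.38, Pdp1 -0.30, Slc16a1 -0.56, Gabpa -0.27 and Tfam -0.37. Scaled to the markers, infarction against sham under control vector gave Mpc1 0.21, Pdhx 0.036, Pcx 0.34, Idh3a 0.026, Idh3g 0.083, Mdh1 0.087, Bcat2 0.12, Bckdk 0.46, Auh 0.20, Acadsb 0.41, Hibch 0.0024, Pccb 0.23, Oxct1 0.035, Irx3 1.14, Esrra 0.24, Me1 0.34, Lipt1 0.080, Pdp1 0.69, Slc16a1 0.62, Gabpa 0.56, Mef2a 0.91, Tfam 0.40, Ppard 0.93 and Mef2c 1.14, and Irx3 vector with infarction against sham gave Mpc2 0.65, Idh3a 0.27, Suclg2 0.23, Sucla2 0.78, Bckdhb 0.19, Hibch 0.92, Pccb 0.0061, Oxct1 0.24, Acly 1.08, Lipt1 0.48, Mcee 0.18 and Esrrg 0.78.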

Other observations

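Markers of other cells gave these summed levels, in CPM, for Irx3 vector with MI, control vector with MI and sham surgery in turn. The 10 macrophage and monocyte markers, led by Lyz2 and Csf1r, summed to 871 to 1696, 1325 to 3108 and 414 to 519. The 8 endothelial markers, led by Cdh5 and Pecam1, summed to 1087 to 1270, 1065 to 1435 and 1593 to 1714. The 8 smooth muscle and pericyte markers, led by Rgs5 and Abcc9, summed to 1341 to 1449, 1080 to 1403 and 1244 to 1446. The 8 T and NK cell markers, led by Cd4 and Cd8a, summed to 8.04 to 18.2, 4.17 to 18.6 and 1.12 to 1.76. The 6 skeletal muscle markers, led by Mybpc2 and Myh1, summed to 68.7 to 155, 25.8 to 394 and 41.4 to 71.2. The 6 adipocyte markers, led by Cidea and Cidec, summed to 18 to 30, 32.8 to 40.9 and 37.7 to 55.0. Only 1 of these 6 passed the filter on low counts, so the sum does not measure the list as a whole. Of the 6 skeletal muscle markers 3 passed it. The 5 erythroid markers, led by Hba-a1 and Hbb-bs, summed to 52.4 to 290, 74.6 to 1058 and 208 to 586. Their part in the levels of the 39 genes was not tested.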
